A study of Mus musculus with 13 samples.

Results

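Collagen genes were followed in tissue punched from the ventral tegmental area (VTA) of mice, a part of the midbrain rich in dopamine neurons. The members were all rows of the gene table with a symbol made of Col, a type number, a and a chain number, at 10 or more normalized counts in at least 2 of 13 libraries. All 44 collagen symbols of the table met this minimum and 0 fell below it, of 26264 genes in all. In the mice, of the strain labelled C57BlJ/6, a virus was given into the VTA at postnatal day 14, and bulk RNA was sequenced from adult tissue. The virus carried either the histone methyltransferase Setd7 or green fluorescent protein (GFP), and the mice either met adult social defeat stress or did not. The groups were GFP virus without defeat (GFP control, n = 3, 1 female), GFP virus with defeat (GFP defeat, n = 4, 2 females), Setd7 virus without defeat (Setd7 control, n = 4, 2 females) and Setd7 virus with defeat (Setd7 defeat, n = 2, 1 female). The promoter and the target cells of the virus, the age at collection, and whether a library holds 1 animal are not given in the sources used here. P-values therefore measure the spread between these libraries.

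Collagens are secreted or membrane-bound proteins in which 3 chains wind into a triple helix. Fibrillar types build tensile fibrils, network types build the sheets under blood vessels, beaded-filament types link fibrils to cells, and fibril-associated types with interrupted helices (FACIT) decorate fibrils. In the brain most collagen lies in the meninges and the vessel wall, while some non-fibrillar types are made by neurons. In some types different genes encode the chains of 1 molecule, so chains of such a molecule are given together.

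The libraries held 26548713 to 50842070 reads assigned to genes. Setd7 itself was at 10888 to 14538 normalized counts in the 7 GFP libraries and at 28587 to 158681 in the 6 Setd7 libraries, with no overlap between the viruses. Th, the enzyme of dopamine synthesis that marks the VTA, was found in every library, at 2508 to 19110. Libraries stood apart in several ways. Dopamine neuron markers summed to 34182 to 37141 in GFP control 2, GFP control 3 and GFP defeat 1 and to 82907 to 158107 in the other libraries. Thalamus markers summed to 51420 in GFP control 2, 23436 in GFP control 3, 27978 in GFP defeat 4 and at most 13784 elsewhere. Summed markers of meningeal fibroblasts, the collagen-making cells of the brain's coverings, reached 32916 in Setd7 defeat 1 and 6405 to 11064 in the other libraries. In Setd7 defeat 1 mural cell markers summed to 18767, against 10924.5 to 14230 in the other libraries. Endothelial markers summed to 25523 there, against 19097 to 21538 in the others. Microglia markers summed to 27857 in Setd7 control 4 and 10323 to 16636 elsewhere. The data column of Setd7 defeat 1 is named with its title's number followed by further digits, so whether it holds 1 animal is not settled. Where comparisons rest on Setd7 defeat 1, GFP control 3 or the libraries with low dopamine markers, member counts or medians are also given without them. Values of single genes without them are given for some genes only.

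Levels between genes were compared as normalized counts per kilobase of coding sequence. By this measure Col25a1, a transmembrane collagen made by neurons and known from amyloid plaques, stood above every other collagen at a mean of 2048 per kilobase (974 to 2948). It made up 28.6 to 61.7% of the summed collagen level, with a median of 52.6%. By exon length, which adds the untranslated ends, its mean was 593 per kilobase and its share 14.2 to 40.3%, with a median of 31.6%. By coding length the next were the basement membrane chains Col4a2 and Col4a1 at means of 207 and 184, then Col8a1 at 140, Col23a1 at 107, Col19a1 at 106 and Col11a1 at 100.1. The lowest was Col6a5 at 1.41 per kilobase. The ranges of Col4a2 and Col4a1 overlapped, and so did those of Col23a1, Col19a1 and Col11a1. That of Col8a1 (92.5 to 222) overlapped each of them, so the order among all these neighbours was not fixed by the libraries. By exon length Col25a1, Col4a2 and Col4a1 stayed the first 3, while Col8a1 came to rank 9 (61.3) and Col23a1 to rank 17 (30.2). By either length the level of Col25a1 was above that of every other collagen in every library. At the low end, 36 of the 44 genes had 10 or more normalized counts in all 13 libraries, Col6a5 in 6, Col9a1 in 8 and Col28a1 in 9.

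**Figure D1:**
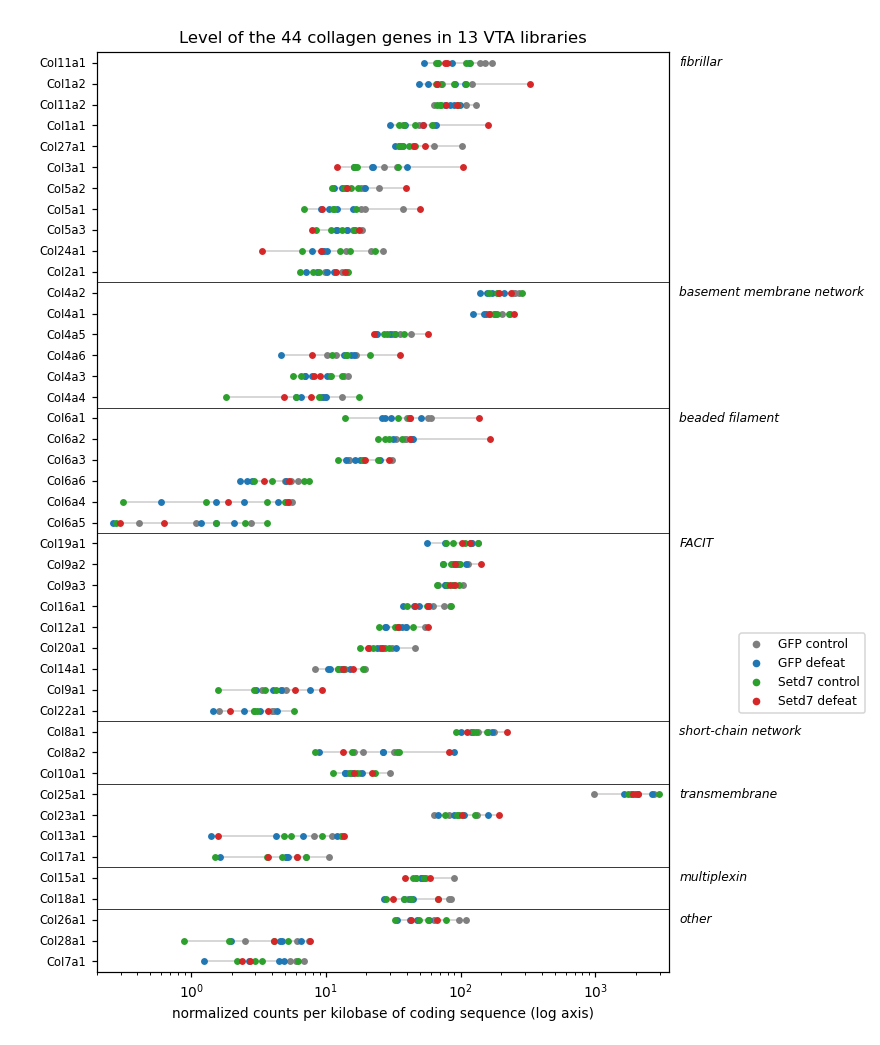
Level of each of the 44 collagen genes in normalized counts per kilobase of coding sequence on a log axis, with 1 point per library coloured by group and genes arranged by class. Col25a1 lies far to the right of the rest, from 974 to 2948, and the genes with a single red point at the far right of their row have their highest value in Setd7 defeat 1.

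Among the classes, the normalized counts of Col25a1 in the single libraries were 4071, 5446 and 1946 in the GFP control libraries, 3265, 4002, 3691 and 5284 in the GFP defeat libraries, 4015, 3507, 4163 and 5889.6 in the Setd7 control libraries and 3810.2 and 4104 in the Setd7 defeat libraries. The GFP control group alone ran from the lowest value to near the highest, and no group stood apart. Col4a2 forms with Col4a1 the main network of vessel basement membranes. Its normalized counts were 1286, 1379 and 1260.2 in the GFP control libraries, 1079, 809.9, 875 and 713 in the GFP defeat libraries, 967, 825, 1470.3 and 950.2 in the Setd7 control libraries and 1201 and 983 in the Setd7 defeat libraries. All 3 GFP control libraries were above all 4 GFP defeat libraries, and the Setd7 control libraries overlapped both. Both Setd7 defeat libraries were below all GFP controls and overlapped the GFP defeat range. Col8a1, a short-chain collagen of vessel walls, was at 278, 394 and 303 in the GFP control libraries, 355, 267, 226 and 382 in the GFP defeat libraries, 206, 350.2, 274 and 293 in the Setd7 control libraries and 496 and 249.7 in the Setd7 defeat libraries. Its highest library was Setd7 defeat 1 and its partner Setd7 defeat 2 was among the lower ones.

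Col19a1 leads the FACIT class and is known in the mouse brain from interneurons and their synapses. Its normalized counts were 458, 405 and 410.4 in the GFP control libraries, 405, 261, 408 and 190.5 in the GFP defeat libraries, 368, 300.5, 459.5 and 265 in the Setd7 control libraries and 346 and 402 in the Setd7 defeat libraries. Both Setd7 defeat libraries were below all GFP controls, and the other pairs of groups overlapped. Col15a1, a multiplexin of vascular basement membranes, was at 209, 368 and 225 in the GFP control libraries, 221, 216, 213 and 207 in the GFP defeat libraries, 218, 180.3, 191 and 192 in the Setd7 control libraries and 244 and 159 in the Setd7 defeat libraries. Its values were similar in most libraries, with 1 higher library in GFP control. By exon length in place of coding length, Col18a1, the source of the vessel growth inhibitor endostatin, led the multiplexins and Col1a2 led the fibrillar class, while the leading genes of the other 6 classes were unchanged.

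The levels of 2 chains of 1 molecule were compared in each library. Col1a2 was above Col1a1 in every library, and the other ratios ran from below 1 to above 1. Per kilobase, Col1a2 was at 1.25 to 2.04 times Col1a1 over the libraries (median 1.78), Col4a2 at 0.929 to 1.43 times Col4a1 (median 1.17), Col6a2 at 0.548 to 1.75 times Col6a1 (median 0.974) and Col5a1 at 0.502 to 2.04 times Col5a2 (median 0.914). Across the 13 libraries Col4a1 and Col4a2 moved together, with Pearson's r of 0.814 on the log2 scale and a permutation p of 0.00065 (0.00173 after Benjamini-Hochberg adjustment over 8 relations). Spearman's rho was 0.780 (permutation p = 0.00242, adjusted p = 0.00645). Without GFP control 2 and Setd7 control 3, the 2 libraries farthest from the median of Col4a2, r was 0.722. Over deviations from group means it was 0.743 (adjusted permutation p = 0.00645). These genes lie head to head on chromosome 8. RefSeq gives their windows from 250 bases before to 50 after the start, in build GRCm38.p6, at chr8:11312777-11313076 on the minus strand for Col4a1 and at chr8:11312555-11312854 on the plus strand for Col4a2. The windows are shown because they share 78 bases, in capitals below, which are reverse complements of each other.
Col4a1: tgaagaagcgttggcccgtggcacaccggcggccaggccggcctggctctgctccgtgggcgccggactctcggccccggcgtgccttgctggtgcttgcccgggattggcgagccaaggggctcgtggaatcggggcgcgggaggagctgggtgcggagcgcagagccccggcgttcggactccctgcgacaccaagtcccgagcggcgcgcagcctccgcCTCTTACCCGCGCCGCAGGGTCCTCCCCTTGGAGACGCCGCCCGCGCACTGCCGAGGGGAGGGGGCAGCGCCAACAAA
Col4a2: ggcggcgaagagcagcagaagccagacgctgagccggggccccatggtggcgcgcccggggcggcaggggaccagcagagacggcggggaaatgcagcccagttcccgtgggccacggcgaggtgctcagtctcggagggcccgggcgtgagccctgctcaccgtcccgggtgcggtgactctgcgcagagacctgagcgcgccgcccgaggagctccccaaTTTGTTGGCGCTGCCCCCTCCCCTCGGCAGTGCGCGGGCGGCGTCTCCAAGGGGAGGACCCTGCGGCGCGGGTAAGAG
Their annotated exons also overlap on opposite strands, and the strand setting of the counting is not given in the sources used here, so reads in the overlap cannot be assigned with certainty. The same holds for Col4a3, Col5a1, Col6a4, Col6a6, Col9a3, Col10a1, Col15a1 and Col22a1, which overlap other genes on the opposite strand.

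The chains of type I collagen, Col1a1 and Col1a2, the main fibril of connective tissue, had an r of 0.953 (permutation p = 1e-05, the smallest that the permutations can give, adjusted p = 4e-05). Spearman's rho was 0.808 (permutation p = 0.00141, adjusted p = 0.00564). Without the 2 farthest libraries, Setd7 defeat 1 and GFP control 3, r was 0.832, and over deviations from group means it was 0.963 (adjusted permutation p = 4e-05). Col5a1 and Col5a2, which start fibrils, had an r of 0.809 (adjusted permutation p = 0.003), a rho of 0.725 (adjusted permutation p = 0.0127), 0.664 without the 2 farthest and 0.706 over deviations (adjusted permutation p = 0.0115). Col6a1 and Col6a2, chains of the beaded filament, had an r of 0.752 (adjusted permutation p = 0.0142) that rested on the farthest libraries. Their rho was 0.297 (adjusted permutation p = 0.373) and r was -0.051 without Setd7 control 1 and Setd7 defeat 1.

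Type I and III chains followed the fibroblast markers. Summed Col1a1, Col1a2 and Col3a1 against the 20 summed meningeal fibroblast markers, a list with no collagen in it, gave an r of 0.960 (permutation p = 1e-05, the smallest possible, adjusted p = 4e-05). The Spearman coefficient was 0.912 (adjusted permutation p = 0.00048), r was 0.959 without the 2 farthest libraries, and 0.957 over deviations from group means (adjusted permutation p = 4e-05). Against the 13 mural cell markers the same sum gave an r of 0.784 (adjusted permutation p = 0.0151), which rested on the farthest libraries, since without them it was 0.237 and rho was 0.511 (adjusted permutation p = 0.124). Col4a1 and Col4a2 summed had an r of -0.0295 with the 16 endothelial markers (adjusted permutation p = 0.932) and of 0.238 with the mural markers (adjusted permutation p = 0.522). The first of these turned on Setd7 defeat 1, without which r was -0.676 (adjusted permutation p = 0.0402), and over all 13 libraries rho was -0.467 (adjusted permutation p = 0.147). In bulk tissue, more cells of a type and more RNA per cell cannot be told apart.

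**Figure D2:**
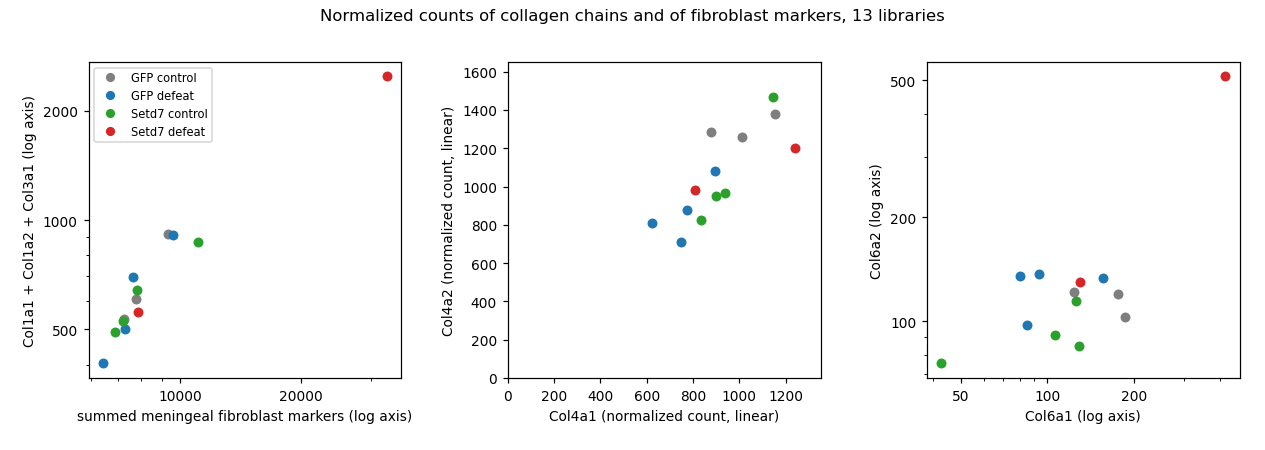
Each point is 1 of 13 libraries, coloured by group: summed Col1a1, Col1a2 and Col3a1 against summed meningeal fibroblast markers (left), Col4a2 against Col4a1 (middle) and Col6a2 against Col6a1 (right), in normalized counts on log axes in the outer panels and linear axes in the middle. Setd7 defeat 1 lies alone at the upper right of the outer panels, at 32916 summed fibroblast markers, and the type IV chains rise together over the whole range.

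The effect of defeat with GFP virus was asked first, GFP defeat against GFP control. Most collagens were lower on average in defeated mice, but 0 of 44 passed the test. Limma with a sex term gave 39 log2 fold changes below 0 and 5 above, with a median of -0.37, where 50.4% of the 17755 tested genes were below 0. At an adjusted p under 0.05 limma called 0 members, and 0% of all tested genes. At an unadjusted p under 0.05, 10 members were lower and 0 higher, against 4.38% of tested genes lower and 4.87% higher. Without GFP control 3 or without GFP defeat 4, 5 were lower, against 4.61% and 3.59% of tested genes. Every one of the 11 fibrillar genes and 6 basement membrane genes was below 0, with class medians of -0.40 and -0.46, as were both multiplexins, 8 of 9 FACIT genes, 5 of 6 beaded-filament genes and 2 of 4 transmembrane genes.

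The smallest p belonged to Col27a1, a fibrillar collagen known from cartilage. Its normalized counts were 349, 246 and 562 in the GFP control libraries, 194, 196, 206 and 181 in the GFP defeat libraries, 203, 192, 255 and 227 in the Setd7 control libraries and 248 and 301 in the Setd7 defeat libraries. The 4 defeat libraries lay between 181 and 206, below all 3 controls, of which GFP control 3 was highest. The log2 fold change was -0.88 ± 0.22 (SE), unadjusted p = 0.00151, with an adjusted p of 0.354 by limma. Leaving out each library in turn gave -1.19 to -0.59 for Col27a1. DESeq2 on the recovered reads called it, at -0.95 and an adjusted p of 0.0195, and edgeR did not (adjusted p = 0.347). DESeq2 called 2 of the 44 members here and 0.467% of tested genes, and edgeR called 0 members and 0% of tested genes. Its RefSeq window, chr4:63215162-63215461 on the plus strand in GRCm38.p6, is shown with that of Col11a1 since these were the only members DESeq2 called here. Capitals mark CCAAT or its reverse complement ATTGG and GGGCGG or its reverse complement CCGCCC.
Col27a1: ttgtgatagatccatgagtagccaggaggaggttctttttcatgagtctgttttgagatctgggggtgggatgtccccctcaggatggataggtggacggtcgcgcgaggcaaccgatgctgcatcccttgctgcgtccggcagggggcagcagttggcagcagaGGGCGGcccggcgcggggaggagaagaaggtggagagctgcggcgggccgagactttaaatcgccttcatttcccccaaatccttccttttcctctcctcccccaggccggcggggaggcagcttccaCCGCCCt
Col11a1: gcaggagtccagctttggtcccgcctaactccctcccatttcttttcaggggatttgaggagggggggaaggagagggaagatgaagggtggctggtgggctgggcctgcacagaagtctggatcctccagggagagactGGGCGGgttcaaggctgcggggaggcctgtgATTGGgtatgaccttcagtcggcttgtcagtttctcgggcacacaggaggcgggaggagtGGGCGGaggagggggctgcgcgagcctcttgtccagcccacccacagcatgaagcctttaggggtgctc
The Col11a1 window is chr3:114030290-114030589 on the plus strand. Col11a1, a minor chain that sits inside fibrils, was at 928, 814 and 755 in the GFP control libraries, 365, 469.9, 627 and 290.3 in the GFP defeat libraries, 353, 367, 639 and 592 in the Setd7 control libraries and 425 and 415 in the Setd7 defeat libraries. All 3 GFP controls were above every other library. The log2 fold change with defeat was -0.95 ± 0.25 (SE), unadjusted p = 0.00234, adjusted p = 0.365 by limma and 0.0399 by DESeq2 (-0.90), with 0.383 by edgeR. Leaving out each library in turn gave -1.14 to -0.68 for Col11a1. Group means were 832 ± 88.2 (SD, n = 3) and 438 ± 146 (SD, n = 4).

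Over the 38 RefSeq windows found for 35 of the 44 members, 13 held CCAAT on either strand (34.2%, against 37.4% of all 32851 windows) and 23 held GGGCGG (60.5%, against 35.7%). Matches of the 2 motifs may share letters, and a match is a description of the letters only.

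Col4a2 differed by -0.60 ± 0.18 (SE), unadjusted p = 0.00569 (log2, adjusted p = 0.397), and its partner Col4a1 by -0.41 ± 0.17 (SE), unadjusted p = 0.0286 (adjusted p = 0.493), both by limma. Col26a1, a collagen with little known of its role, was at 128, 146 and 84.0 in the GFP control libraries, 76.95, 44.7, 55.2 and 62.5 in the GFP defeat libraries, 64.4, 74.9, 104 and 42.8 in the Setd7 control libraries and 88.3 and 56.3 in the Setd7 defeat libraries. All GFP controls were above all GFP defeat libraries and the difference was -0.999 ± 0.32 (SE), unadjusted p = 0.0081, adjusted p = 0.423 by limma. In all, the libraries of the groups did not overlap for 11 members, each lower after defeat, against 4.74% of tested genes lower without overlap. They were Col4a2, Col4a3, Col5a1, Col6a4, Col7a1, Col11a1, Col16a1, Col17a1, Col24a1, Col26a1 and Col27a1.

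Among these, Col24a1, a fibrillar chain known from bone and cornea, was at 112, 72.8 and 138 in the GFP control libraries, 50.8, 53.0, 41.1 and 48.4 in the GFP defeat libraries, 66.6, 34.9, 121 and 78.5 in the Setd7 control libraries and 48.1 and 17.6 in the Setd7 defeat libraries. The GFP defeat libraries and Setd7 defeat libraries were low, and the controls of either virus spread more widely. Col16a1, a FACIT member, was at 297, 398 and 359.8 in the GFP control libraries, 231, 213, 278 and 176 in the GFP defeat libraries, 266, 189, 403 and 272 in the Setd7 control libraries and 273 and 216 in the Setd7 defeat libraries. Its GFP defeat libraries were all below its GFP controls, and Setd7 control 3 was highest. Their differences with defeat were -1.10 ± 0.42 (SE), unadjusted p = 0.0221 and -0.62 ± 0.22 (SE), unadjusted p = 0.0152 on the log2 scale, with adjusted p of 0.478 and 0.451 by limma.

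In the same comparison the 14 dopamine neuron markers were all above 0 (median 0.78), 7 of 9 thalamus markers were below 0 (median -0.56) and 16 of 20 meningeal fibroblast markers were below 0 (median -0.30). Their part in the collagen differences was not tested. Leaving out the 3 libraries with low dopamine markers, which leaves 1 GFP control, 31 of 44 members were below 0 with a median of -0.34, against 51.4% of tested genes. Without GFP control 3, which held the highest value of 10 members, 32 were below 0, against 51.0%.

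**Figure D3:**
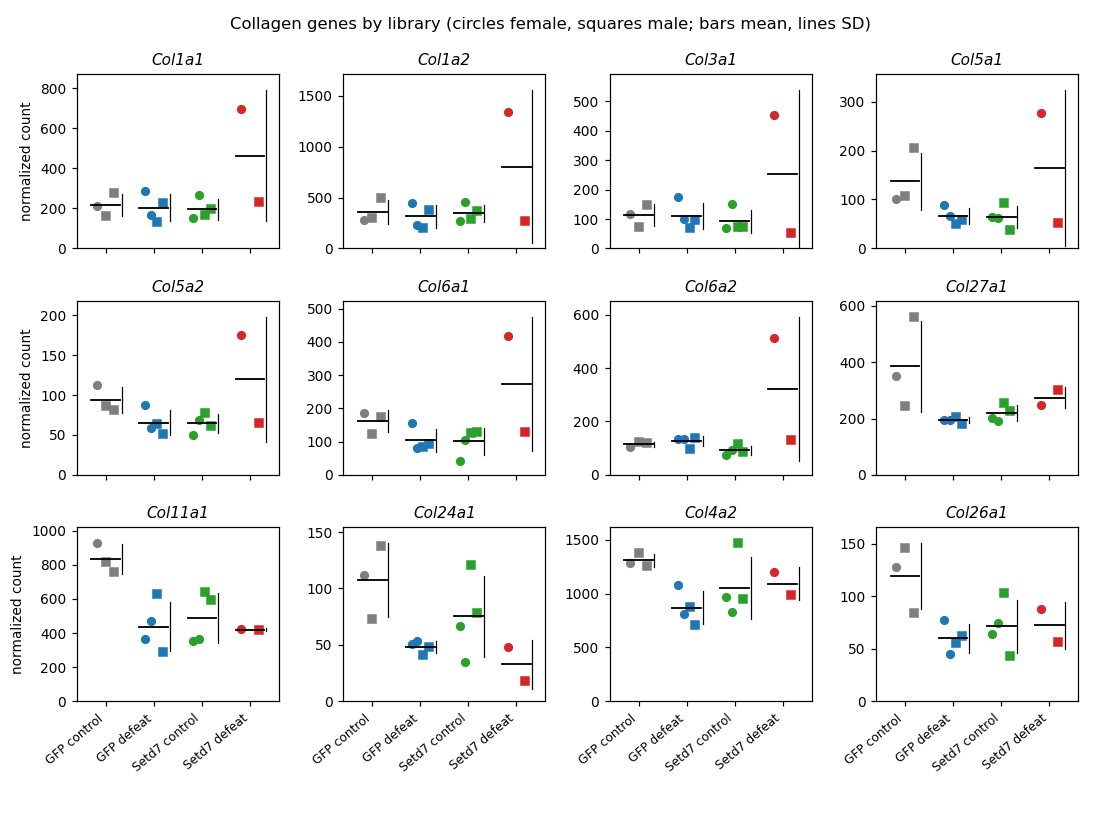
Normalized counts of 12 collagen genes by library (circles females, squares males, coloured by group), with the group mean as a bar and the SD as a line, cut at 0 where it would run below. Setd7 defeat 1 is far above all other libraries for Col1a1, Col1a2, Col3a1, Col6a1 and Col6a2, while the GFP control libraries are highest for Col11a1.

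The effect of Setd7 virus without defeat, Setd7 control against GFP control, uses the same 3 GFP control libraries as the comparison above, so the values are given side by side and not as a second observation. Here 37 of 44 members were below 0 and 7 above, with a median of -0.37, against 48.6% of tested genes below 0. Limma called 0 members and 0% of tested genes at an adjusted p under 0.05, and edgeR and DESeq2 called 0 members, with 0% and 0.152% of tested genes. At an unadjusted p under 0.05, 4 members were lower and 0 higher, against 3.70% of tested genes lower and 4.31% higher. Without Setd7 control 3, 14 were lower with a median of -0.51 over the members, against 4.09% of tested genes. Without any other single library of these groups, 3 to 5 were lower. All 11 fibrillar genes were again below 0 (median -0.46), as were 5 of 6 basement membrane genes, 5 of 6 beaded-filament genes and 6 of 9 FACIT genes.

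Col27a1 differed by -0.71 ± 0.22 (SE), unadjusted p = 0.0063 and Col11a1 by -0.78 ± 0.25 (SE), unadjusted p = 0.00804, with adjusted p of 0.539 and 0.547 by limma. Their values are those above, where the Setd7 controls of Col11a1 lie below all GFP controls and those of Col27a1 overlap them at 1 library. Col5a1, a chain of the type V collagen inside fibrils, was at 100.4, 108 and 205 in the GFP control libraries, 88.2, 66.5, 50.5 and 58.5 in the GFP defeat libraries, 63.3, 62.3, 92.8 and 37.7 in the Setd7 control libraries and 277 and 51.6 in the Setd7 defeat libraries. Its Setd7 controls were all below its GFP controls, and Setd7 defeat 1 was highest of all. The difference was -1.16 ± 0.46 (SE), unadjusted p = 0.0273, adjusted p = 0.589 by limma, and Col26a1 differed by -0.79 ± 0.32 (SE), unadjusted p = 0.0282, adjusted p = 0.589. Groups did not overlap for 4 members, Col5a1, Col5a2, Col6a4 and Col11a1, each lower with Setd7, against 4.09% of tested genes. Dopamine neuron markers were again all above 0 (14 of 14, median 0.94), 8 of 9 thalamus markers were below 0 (median -0.96) and 16 of 20 fibroblast markers below 0 (median -0.29). Microglia markers were 10 of 10 above 0 (median 0.41). The part of these markers in the collagen differences was not tested. Without the 3 libraries with low dopamine markers 31 of 44 members were below 0 with a median of -0.25 (50.1% of tested genes), and the Col5a1 difference was -0.37.

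**Figure D4:**
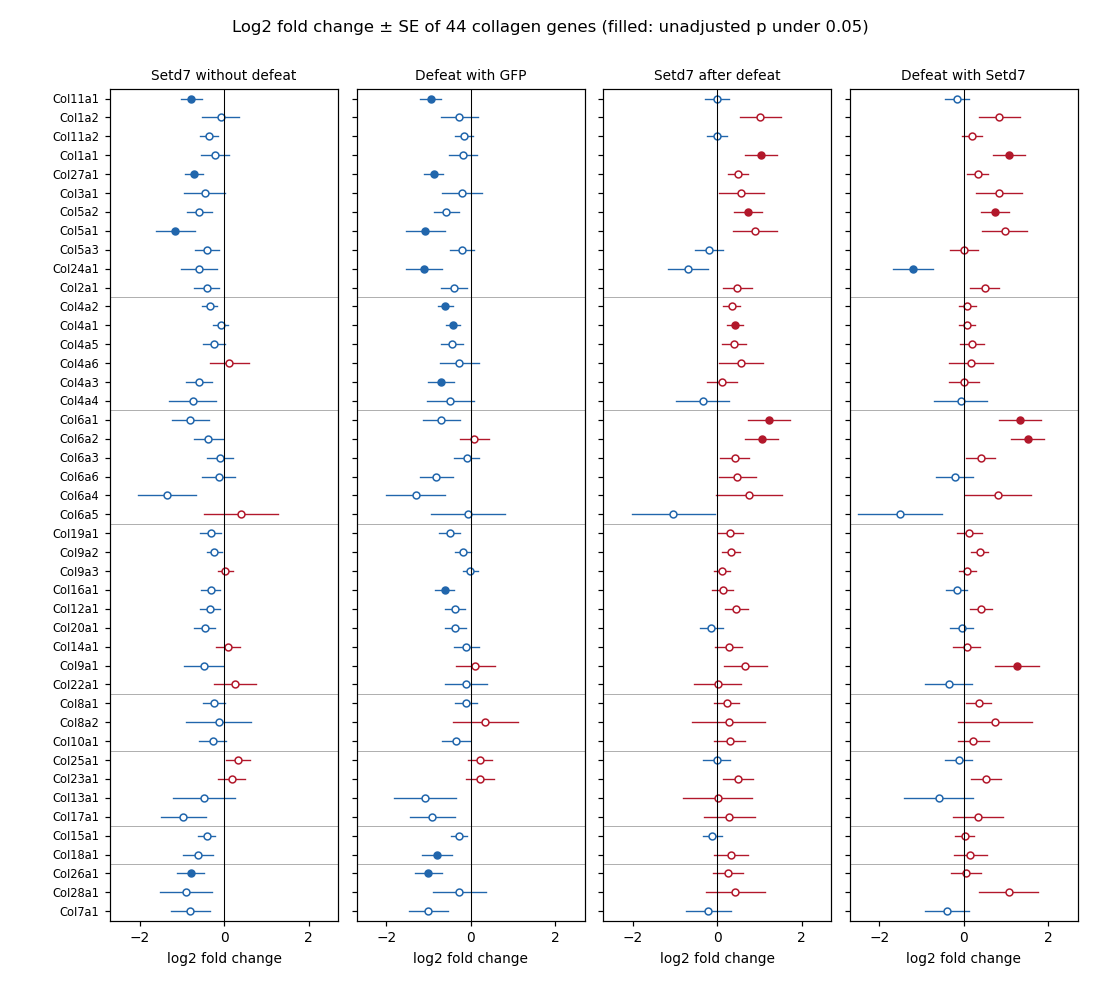
Log2 fold change with its SE of the 44 collagen genes in 4 comparisons, genes in rows by class, red above 0 and blue below, filled where the unadjusted p is under 0.05. The first 2 panels, which share the GFP control libraries, have 37 and 39 points below 0, and the last 2, which share the Setd7 defeat libraries, have 34 and 33 above 0.

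After defeat the values turned on 1 library. Setd7 defeat against GFP defeat gave 34 of 44 members above 0 and 10 below, with a median of 0.31, against 50.8% of tested genes above 0. Limma called 0 members and 0% of tested genes at an adjusted p under 0.05, as did edgeR, and DESeq2 called 0 members and 0.0338% of tested genes. At an unadjusted p under 0.05, 5 members were higher and 0 lower, against 2.59% of tested genes higher and 2.26% lower. The higher count was 0 without Setd7 defeat 1 (2.55% of tested genes), 15 without Setd7 defeat 2 (3.72%), 2 without GFP defeat 2 or GFP defeat 3 (2.21% and 2.38%) and 3 without Setd7 control 2 or Setd7 control 4 (2.33% and 2.99%). Groups did not overlap for Col2a1 and Col27a1, both higher with Setd7, against 7.09% of tested genes. Without Setd7 defeat 1, which leaves 1 library in the group, 18 members were above 0 and 26 below, with a median of -0.05, against 51.2% of tested genes above 0. Without Setd7 defeat 2, 39 were above 0 with a median of 0.67, against 51.1% of tested genes.

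Col1a1 was at 213, 164 and 275 in the GFP control libraries, 288, 168, 130.4 and 229 in the GFP defeat libraries, 152, 269, 165 and 199 in the Setd7 control libraries and 695 and 231 in the Setd7 defeat libraries. Setd7 defeat 1 was more than 2 times above any other library and its partner lay within the range of the rest. The log2 fold change was 1.04 ± 0.38 (SE), unadjusted p = 0.0166, adjusted p = 0.99 by limma, and 0.34 without Setd7 defeat 1. Col6a2 was at 103, 121 and 119.6 in the GFP control libraries, 134, 135, 97.5 and 137 in the GFP defeat libraries, 75.3, 91.3, 114 and 84.6 in the Setd7 control libraries and 514 and 130.2 in the Setd7 defeat libraries. Again Setd7 defeat 1 stood alone, and Setd7 defeat 2 lay inside the GFP defeat range. Its log2 fold change was 1.05 ± 0.39 (SE), unadjusted p = 0.018, adjusted p = 0.99 by limma, and 0.03 without Setd7 defeat 1.

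Col6a1 was at 186, 124 and 176 in the GFP control libraries, 156, 80.1, 84.6 and 93.7 in the GFP defeat libraries, 42.6, 106, 126 and 128 in the Setd7 control libraries and 417 and 130.2 in the Setd7 defeat libraries. Setd7 defeat 1 was highest, and Setd7 control 1 was lowest. Its difference was 1.22 ± 0.50 (SE), unadjusted p = 0.0297, adjusted p = 0.99 by limma, and 0.31 without Setd7 defeat 1. Col5a2, partner of Col5a1, was at 112, 86.4 and 81.9 in the GFP control libraries, 87.4, 59.3, 63.4 and 51.4 in the GFP defeat libraries, 50.2, 69.0, 77.7 and 61.2 in the Setd7 control libraries and 176 and 64.5 in the Setd7 defeat libraries. Setd7 defeat 1 was highest here too, and the difference was 0.72 ± 0.33 (SE), unadjusted p = 0.0483, adjusted p = 0.99 by limma, and 0.08 without that library. The fifth member past an unadjusted 0.05 was Col4a1, at 0.41 ± 0.19 (SE), unadjusted p = 0.0493, and 0.02 (unadjusted p = 0.917 by limma) without Setd7 defeat 1. All 20 meningeal fibroblast markers were above 0 in this comparison (median 1.32), 17 of them at an unadjusted p under 0.05, with 12 of 13 mural markers (median 0.46) and 15 of 16 endothelial markers (median 0.19) above 0. Without Setd7 defeat 1, 16 fibroblast markers (median 0.31), 10 mural markers (median 0.05) and 11 endothelial markers (median 0.15) were above 0, and 0 of the fibroblast markers had an unadjusted p under 0.05.

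Defeat with Setd7 virus, Setd7 defeat against Setd7 control, shares the Setd7 defeat libraries. It gave 33 members above 0 and 11 below, with a median of 0.18, against 48.0% of tested genes above 0. Limma called 0 members and 0% of tested genes, edgeR called 0 members and 0% of tested genes, and DESeq2 called 1, Col6a2, at 1.74 and an adjusted p of 0.0278, where 0.0394% of tested genes were called. At an unadjusted p under 0.05, 5 members were higher and 1 lower, against 1.45% of tested genes higher and 1.13% lower. The higher count was 0 without Setd7 defeat 1 (1.27% of tested genes), 14 without Setd7 defeat 2 (3.45%) and 3 without Setd7 control 1 or Setd7 control 4 (1.01% and 2.16%). Col6a2 differed by 1.51 ± 0.39 (SE), unadjusted p = 0.00188, Col1a1 by 1.06 ± 0.38 (SE), unadjusted p = 0.0145 and Col6a1 by 1.32 ± 0.50 (SE), unadjusted p = 0.0198, while Col24a1 was at -1.204 ± 0.47 (SE), unadjusted p = 0.0251, with adjusted p of 0.9999 by limma. Without Setd7 defeat 1 these were 0.49, 0.36, 0.42 and -2.03, and 16 members were above 0, against 48.9% of tested genes. For Col24a1, leaving out each library in turn gave -2.03 to -0.38. It was at 48.1 in Setd7 defeat 1 and 17.6 in Setd7 defeat 2, so the size of its difference also turned on these libraries. Without Setd7 defeat 2 limma called Col6a2 in this comparison (2.53, adjusted p = 0.00935), where 0.101% of tested genes were called, and against GFP defeat (2.07, adjusted p = 0.0342), where 0.130% were. Groups did not overlap for Col6a1, Col6a2 and Col9a1, each higher after defeat, against 4.18% of tested genes, and Setd7 defeat 2 was at 130.2 for Col6a1, 130.2 for Col6a2 and 16.4 for Col9a1. All 20 fibroblast markers were above 0 (median 1.19), and 16 without Setd7 defeat 1 (median 0.18).

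The interaction asks whether the Setd7 difference with defeat differed from that without. It was above 0 for 40 of 44 members, with a median of 0.60, against 50.1% of tested genes above 0, and limma and edgeR called 0 members and 0% of tested genes, while DESeq2 called 0 members and 0.00563% of tested genes. Unadjusted, 9 members were higher at p under 0.05 and 0 lower, against 2.51% of tested genes higher and 2.45% lower. The higher count was 1 without Setd7 defeat 1 (2.66% of tested genes), 16 without Setd7 defeat 2 (3.45%) and 15 without Setd7 control 3 (2.69%). Col27a1 was at 1.203 ± 0.33 (SE), unadjusted p = 0.00298, Col6a1 at 2.02 ± 0.66 (SE), unadjusted p = 0.00978, Col5a2 at 1.31 ± 0.44 (SE), unadjusted p = 0.0112 and Col5a1 at 2.04 ± 0.70 (SE), unadjusted p = 0.0122, each with an adjusted p of 0.942 by limma. Without Setd7 defeat 1 they were at 1.29, 1.07, 0.63 and 0.82, and 30 of 44 members were above 0 with a median of 0.19, against 50.6% of tested genes. The member median was 0.69 without the 3 libraries with low dopamine markers, which leaves 1 GFP control. For Col27a1 both Setd7 defeat libraries were above all 4 GFP defeat libraries, and all 4 Setd7 control libraries were below 2 of the 3 GFP controls.

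Averaged over defeat, Setd7 gave 22 members above 0 and 22 below with a median of 0.00, against 51.0% of tested genes above 0. Limma and edgeR each called 0 members, and 0.00563% of tested genes, which is 1 gene, Setd7 by limma. DESeq2 called 0 members and 0.0394% of tested genes, and 0 members had an unadjusted p under 0.05, against 7.12% of tested genes. Averaged over virus, defeat gave 26 members below 0 and 18 above with a median of -0.08, against 49.7% of tested genes below 0. Limma, edgeR and DESeq2 called 0 members, and 0%, 0% and 0.0451% of tested genes. Unadjusted, 3 were lower and 1 higher, against 2.83% and 2.34% of tested genes: Col24a1 at -1.15 ± 0.32 (SE), unadjusted p = 0.00318, Col11a1 at -0.55 ± 0.19 (SE), unadjusted p = 0.0115, Col16a1 at -0.39 ± 0.17 (SE), unadjusted p = 0.0344 and Col6a2 at 0.79 ± 0.26 (SE), unadjusted p = 0.009, each with an adjusted p of 0.922 by limma. Both averages turned on Setd7 defeat 1, since without it 38 members were below 0 for Setd7 (median -0.21, 48.9% of tested genes) and 36 for defeat (median -0.23, 50.1%). For defeat, leaving out each library in turn gave -1.54 to -0.72 for Col24a1, -0.65 to -0.42 for Col11a1 and -0.54 to -0.23 for Col16a1. For Col6a2 it gave 0.31 to 1.33. Without Setd7 defeat 2, 28 members were above 0 in each average, against 51.6% and 50.6% of tested genes. Col6a2 was then at 1.33 for defeat. At an unadjusted p under 0.05 the Setd7 average then had 9 members, against 8.86% of tested genes. For defeat 7 were lower without Setd7 defeat 1 (532 of the 17755 tested genes), 6 without GFP defeat 1 or Setd7 control 2 (3.37% and 2.79% of tested genes), and 7 higher without Setd7 defeat 2 (887 of the tested genes). Between the sexes 22 members were higher and 22 lower in females, against 48.9% of tested genes higher. Limma called 0 members and 0.0620% of tested genes, and 1 member had an unadjusted p under 0.05, against 3.87%. The even split needed both Setd7 defeat libraries. Without Setd7 defeat 1, or without Setd7 defeat 2, 12 members were higher and 32 lower in females, with a median of -0.10. Col3a1, the reticular fibre collagen, was at 119, 72.1 and 148 in the GFP control libraries, 176, 98.8, 70.5 and 96.8 in the GFP defeat libraries, 71.0, 151, 71.2 and 74.4 in the Setd7 control libraries and 455 and 52.8 in the Setd7 defeat libraries. Its sex difference was 0.90 ± 0.35 (SE), unadjusted p = 0.0238 with females higher, adjusted p = 0.999 by limma, and 0.49 without Setd7 defeat 1, which is a female.

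Counted over libraries, Setd7 defeat 1 held the highest value of 17 of the 44 members (38.6%), against 9.47% of all tested genes. GFP control 3 held 10 (22.7%, against 11.3%) and Setd7 control 3 held 8 (18.2%, against 5.63%). In 6 libraries, GFP defeat 1 to 3, Setd7 control 1 and 2 and Setd7 defeat 2, 0 members were highest. Setd7 defeat 1 was more than 1.5 times above every other library for 7 members (15.9%, against 1.23% of tested genes) and more than 2 times for 5 (11.4%, against 0.670%). These 5 were Col1a1, Col1a2, Col3a1, Col6a1 and Col6a2, and Col4a6 and Col5a2 came next. Col1a2 was at 1337 there, against 202 to 495 in the other 12 libraries, and Col3a1 at 455 against 52.8 to 176. The same library was not highest for Col11a1, Col24a1 or Col27a1. The RefSeq window of Col1a2, the promoter of the type I chain with the most reads, is chr6:4505368-4505667 on the plus strand in GRCm38.p6, with CCAAT or ATTGG and GGGCGG in capitals.
Col1a2: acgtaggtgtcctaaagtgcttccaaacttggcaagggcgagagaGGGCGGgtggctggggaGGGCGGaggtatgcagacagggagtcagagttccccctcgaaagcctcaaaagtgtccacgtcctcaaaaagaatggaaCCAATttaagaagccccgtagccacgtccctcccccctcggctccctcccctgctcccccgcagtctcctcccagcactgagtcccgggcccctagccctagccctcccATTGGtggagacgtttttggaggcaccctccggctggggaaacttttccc

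**Figure D5:**
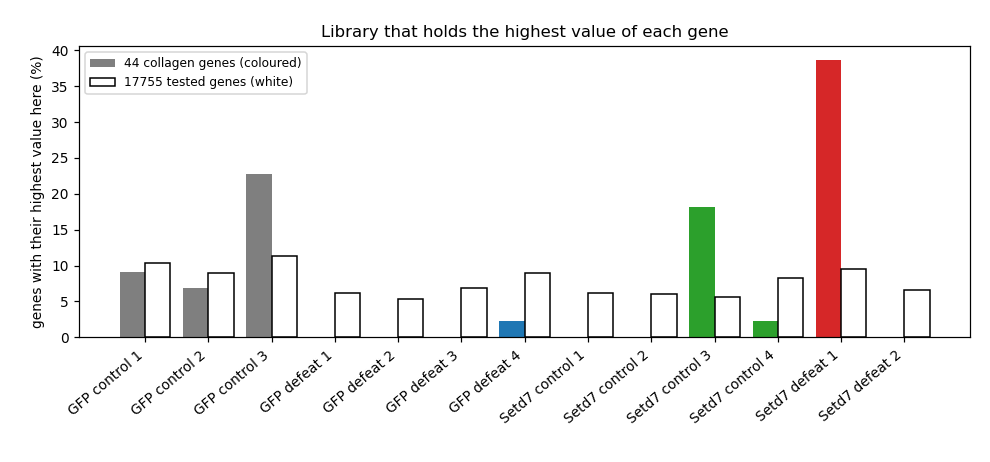
Percent of genes that have their highest value in each of the 13 libraries, for the 44 collagen genes (coloured by group) and for the 17755 tested genes (white). Setd7 defeat 1 holds 38.6% of collagen maxima against 9.47% of all, and 6 libraries hold none.

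Genes that make, link and bind collagen were described from 6 lists, and 0 of their genes were called by limma in any of the 4 comparisons of groups. With defeat and GFP virus, 10 of 20 folding and modification genes were above 0 (median 0.00). The smallest p in any list there belonged to Bmp1, the protease that trims procollagen, at -0.53 ± 0.11 (SE), unadjusted p = 0.000376 and an adjusted p of 0.341 by limma. P4hb, a subunit of the enzyme that hydroxylates proline, was at 0.25 ± 0.08 (SE) and P3h3, a collagen prolyl hydroxylase family member, at -0.58 ± 0.19 (SE). Of 14 processing and cross-linking genes 9 were below 0 (median -0.24), and of 15 fibril-associated matrix genes 12 were below 0 (median -0.23). In contrast, 9 of 12 basement membrane partners were above 0 (median 0.05), while their network chains Col4a1 to Col4a6 were all below. With Setd7 virus and no defeat, 12 of 14 processing genes were below 0 (median -0.18), Bmp1 at -0.30 ± 0.11 (SE), and 11 of 20 folding genes were above (median 0.02).

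After defeat, Setd7 against GFP, most genes of each list were above 0. How far this rested on Setd7 defeat 1 differed between the lists. The fibril-associated matrix had 14 of 15 genes above 0 (median 0.75), 6 at an unadjusted p under 0.05, and 9 above 0 (median 0.11) without Setd7 defeat 1, 0 of them at an unadjusted p under 0.05. This list shares 5 genes, Bgn, Dcn, Fn1, Lum and Ogn, with the 20 meningeal fibroblast markers. Of its other 10 genes, 9 were above 0 (median 0.35), and 4 without Setd7 defeat 1 (median -0.06). The proteoglycans Dcn and Ogn were at 0.94 ± 0.26 (SE) and 1.89 ± 0.54 (SE) and fibronectin, Fn1, at 0.87 ± 0.25 (SE), and without Setd7 defeat 1 at 0.41, 0.57 and 0.12. Dcn was at 1333 in Setd7 defeat 1 and 571 in Setd7 defeat 2, against 372 to 536 in the GFP defeat libraries. Ogn was at 1166 and 151, against 74.0 to 163, and Fn1 at 8241 and 2876, against 2589 to 2789. Each of these stood far higher in Setd7 defeat 1 than in its partner.

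Basement membrane partners had 11 of 12 genes above 0 (median 0.24), and 4 without Setd7 defeat 1 (median -0.17). The laminin chain Lamc1 was at 0.32 ± 0.09 (SE) and the nidogen Nid1 at 0.56 ± 0.20 (SE), and without that library at 0.30 (unadjusted p = 0.0241 by limma) and 0.09. Among the 11 receptors tested, 8 were above 0 (median 0.35), and 6 without it (median 0.04). The integrin chain Itgb1 was at 0.35 ± 0.10 (SE), the uptake receptor Mrc2 at 0.99 ± 0.38 (SE) and the kinase receptor Ddr2 at 0.90 ± 0.36 (SE), and without it at 0.295 (unadjusted p = 0.0422 by limma), -0.0028 and 0.24. Mrc2 was at 1087 in Setd7 defeat 1 and 284 in Setd7 defeat 2, against 198 to 395 in the GFP defeat libraries, and Ddr2 at 872 and 291, against 194 to 359. The values of Lamc1 and Itgb1 moved little without Setd7 defeat 1, while those of Mrc2 and Ddr2 rested on it.

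Folding genes were 15 of 20 above 0 (median 0.07), with the collagen chaperone Serpinh1 at 0.49 ± 0.16 (SE), and 10 without Setd7 defeat 1 (median -0.05), with Serpinh1 at 0.20. Processing genes were 12 of 14 above (median 0.17), with the cross-linking enzyme Lox at 1.34 ± 0.58 (SE), and 10 without it (median 0.06), with Lox at 0.37. Lox was at 179 in Setd7 defeat 1 and 39.9 in Setd7 defeat 2, against 21.1 to 49.4 in the GFP defeat libraries. Breakdown genes were 7 of 11 above (median 0.08), and 6 without it (median 0.08), with 0 at an unadjusted p under 0.05 either way. Each of the genes named for this comparison had an adjusted p of 0.990 by limma with all libraries.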

How the data were processed

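Per the labels' protocols, RNeasy Micro kits gave the RNA and a TruSeq RiboZero kit the libraries. Bowtie2, featureCounts and DESeq2 and the build GRCm39 are named, per the submitters' processing notes; versions, annotation and strand setting are not given in the sources used here. The authors deposited 1 table of signal, that is, counts divided by a size factor per sample. All 341432 values lay within 0.01 of a whole multiple of 1 read, so reads were recovered (26548713 to 50842070 per library, whose number sets the counting precision), and edgeR 4.0.16 and DESeq2 1.42.0 were run on them as alternatives. The share of values that came out whole was 100%, and over all genes edgeR called 0 and DESeq2 27 genes for Setd7 without defeat, and 0 and 83 for defeat with GFP.

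The main test was limma 3.58.1 (R 4.3.3, trend, 4 group means and sex, two-sided) on log2(normalized count + 1), which understates changes of low genes, for the 17755 genes with 10 or more in at least 2 libraries (8509 dropped, 0 of them collagens). Residual and prior degrees of freedom were 8 and 4.64. Benjamini-Hochberg adjustment ran over all tested genes, with a threshold of 0.05. The script was tested on simulated data. The design was written for counts or normalized values alike. Relations used 100000 permutations, two-sided. Lengths came from GENCODE vM21 and promoter windows from RefSeq. Values in every library are given for the up to 4 members per comparison with the smallest p under 0.05 and for the highest member per class. Members, lists and tests were chosen with earlier results of these data known. The lists without Setd7 defeat 1, the matrix list without shared genes and the share by exon length were added after seeing the data. Replicate numbers follow accession order and pair nothing.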

Additional observations from a re-analysis of the deposited data

Results flagged for a closer look

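Over 16 members, 32 groups of 4 libraries were tested for a library far from the rest by Dixon's test, which flags about 5% of groups by chance, and 2 were flagged. Col3a1 was at 151.4 normalized counts in Setd7 control 2, against 71.0 to 74.4 in the other Setd7 control libraries. Col6a2 was at 97.5 in GFP defeat 3, against 133.7 to 137.1 in the other GFP defeat libraries. Groups of 3 and of 2 were not tested this way, which leaves out GFP control and Setd7 defeat.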

How the results depend on the processing

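Over all alternatives of the named genes, 634 values kept their direction and side of the threshold, 6 newly passed it and 0 reversed. This tally does not measure size, since each named gene was already above the threshold in the main test. For Setd7 after defeat, leaving out each library in turn gave 0.03 to 2.07 for Col6a2 and 0.08 to 1.37 for Col5a2. For defeat with Setd7 it gave -2.03 to -0.38 for Col24a1. DESeq2 called 2 members for defeat with GFP (Col27a1 and Col11a1) and 1 for defeat with Setd7 (Col6a2), against 0 by limma and edgeR. Leaving out each library in turn gave 0 to 1 calls for Setd7 after defeat, for defeat with Setd7 and for defeat averaged over virus, each time Col6a2 without Setd7 defeat 2, and 0 elsewhere. For Col6a1 with Col6a2, Spearman's rho was 0.297, r was -0.051 without the 2 farthest libraries, and 0.418 to 0.807 leaving out 1 library. For Col4a1 and Col4a2 with endothelial markers r was 0.171 over deviations from group means and -0.676 to 0.131 leaving out 1 library, the lowest without Setd7 defeat 1 (adjusted permutation p = 0.0402). With mural markers rho was -0.0275, r was -0.478 without the 2 farthest, and -0.0698 to 0.413 leaving out 1. For type I and III chains with mural markers rho was 0.511, r was 0.237 without the 2 farthest, and 0.332 to 0.836 leaving out 1, the lowest without Setd7 defeat 1. The cause was not tested. No paired analysis was possible because replicate numbers follow accession order. With 1 library left in a group, that library was assumed to vary like the others. Limits: the Setd7 defeat group has 2 libraries, and 3 GFP controls enter 2 comparisons.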
